A study of Mus musculus with 4 samples.

Results

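The interferon-inducible p200 genes of the mouse were followed across the cells of the kidney glomerulus, the tuft of capillaries that filters the blood, in 2 young and 2 aged preparations. The members were the rows of the deposited matrices whose symbol was Ifi203, Ifi204, Ifi205, Ifi207, Mnda or Mndal. Of these 6 symbols 5 had a row, among 52636 genes in all, and no row carried the symbol Mnda. Ifi211, for which RefSeq lists Mnda as another name, was measured under its own symbol and is described among the 8 other genes of the family that had a row. Glomeruli were collected with magnetic beads from untreated young and aged mice and digested to single cells, and 3′ droplet libraries were made, 2 per age group. The labels give the age only as young or aged, and give no strain, sex, genotype or number of mice per library. They do not say that the libraries of a group came from separate animals, so the spread between the 2 libraries of a group may be technical. The members had been chosen from these same libraries for how they compared between young and aged cells, so their differences with age are given as a description, with no test.

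Genes of this family encode proteins with a DNA-binding HIN domain, most of them with a pyrin domain at the other end. Aim2 is the best known: its protein binds DNA in the cytosol and assembles an inflammasome. Ifi204 encodes a sensor of intracellular DNA that acts through the STING pathway, and it has also been described as a regulator of cell growth and differentiation, as has Ifi205. Several genes of the family are induced by type I and type II interferon and are familiar from macrophages, monocytes and lymphoid cells.

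The family lies in 1 stretch of chromosome 1. In the GENCODE vM21 annotation of GRCm38 the 5 members lay within 308 kb, all on the minus strand: Ifi207 at chr1:173723427-173741747, Ifi204 at chr1:173747293-173766943, Mndal at chr1:173849126-173942491, Ifi203 at chr1:173920407-173942672 and Ifi205 at chr1:174011998-174031810. All were annotated as protein coding. The model of Mndal spans Ifi211 and runs into Ifi203 on the same strand, and 37 exonic bases were shared by Mndal and Ifi203 (0.552% of the exonic bases of Ifi203).

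The promoters are shown because several genes of the family are induced by interferon. RefSeq start sites on GRCm38.p6 were at hand for Ifi203, Ifi205, Ifi207 and Mndal, with 6 start sites in all, and not for Ifi204. In the 250 bases before each start, the core of the interferon-stimulated response element was searched on both strands as GAAA, any 2 bases and GAAA. It was found before 5 of these 6 start sites, before 10 of 14 start sites of the 12 family genes in the table, and before 974 of 32817 start sites of all genes (2.97%). The gamma-activated sequence core, searched the same way as TTC, any 3 bases and GAA, was found before none of the 6, before 1 of the 14 (that of Ifi202b) and before 7.01% of all start sites. The 30-base windows round the response element core follow, read along the gene's strand, with the core in capitals.
Ifi203, second start site, chr1:173942508-173942537: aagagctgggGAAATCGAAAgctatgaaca
Mndal, first start site, chr1:173880204-173880233: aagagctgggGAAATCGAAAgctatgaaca
Mndal, second start site, chr1:173879993-173880022: ttttgagtcaTTTCTCTTTCtactcaaaac
Ifi207, chr1:173741831-173741860: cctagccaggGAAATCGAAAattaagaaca
Ifi205, chr1:174031870-174031899: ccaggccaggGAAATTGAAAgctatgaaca
Ifi211, chr1:173913064-173913093: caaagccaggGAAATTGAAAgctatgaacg
Some of these stretches overlap annotated exons. Of the 250 bases before the start, 118 and 211 lay in annotated exons for the first and second Mndal sites. For Ifi205 it was 55, for the second Ifi203 site 17, and for Ifi207 and Ifi211 0. Both RefSeq starts of Mndal lie inside its GENCODE model. The windows of Ifi203 and of the first start site of Mndal were the same at 30 of 30 bases. The window of Ifi207 matched the Ifi203 window at 22 bases and that of Ifi205 at 23. In the window of the second Mndal start site the core stands on the opposite strand. Its match of 5 bases was counted without turning the window round, so it cannot be compared with the others. The core began 35 bases before the start in Ifi203, 36 before the first start in Mndal, 41 in Ifi207, 37 in Ifi211 and 134 in Ifi205. Written on the gene's strand, GAAATCGAAA stood before 7 start sites of the family and in 11 of all promoter sequences. Over the whole 250 bases, 74.6% of the 12-base words of the Ifi203 second promoter were also found in the first promoter of Mndal, against 18.4% between Ifi205 and Ifi207. The promoter of Ifi207, the member with the largest log2 fold change in endothelium among those that passed the count filter, is given in full, again with the core in capitals.
Ifi207, chr1:173741810-173742059, minus strand: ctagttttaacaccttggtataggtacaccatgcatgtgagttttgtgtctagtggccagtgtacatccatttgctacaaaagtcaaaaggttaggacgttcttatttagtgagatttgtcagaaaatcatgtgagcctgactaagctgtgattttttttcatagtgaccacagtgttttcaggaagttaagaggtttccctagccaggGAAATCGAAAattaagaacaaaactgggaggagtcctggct

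Close relatives in 1 locus can share reads. Of all 90-base stretches in the transcripts of Ifi203, 3.64% also occurred in the transcripts of another gene of the family, as did 1.47% of those of Ifi207, 7.95% of Mndal, 11.5% of Ifi204 and 15.6% of Ifi205. In the last 500 bases of the transcripts, where 3′ libraries read, the shares were 1.05% for Ifi203, 9.33% for Mndal and 29.7% for Ifi205, and no shared stretch was found for Ifi204 or Ifi207. For Ifi211 the share was 59.4%, mostly with Ifi205, so its counts and those of Ifi205 and Mndal are less certain than the rest.

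After filtering, young replicates 1 and 2 had 5035 and 6976 cells, and aged replicates 1 and 2 had 9187 and 6802. Cells were sorted into classes by marker genes, without using the family itself for clustering. Single cells rich in markers of an unrelated class were left without a class. This lowers the shares of other classes' markers that are given below for the class sums. Young replicate 2 stood apart: its cells held a median of 1258 UMIs (unique molecular identifiers, each standing for 1 captured RNA molecule), against 2715 to 3730 in the others, and 65.5% of them received no class because markers of several cell types occurred together, against 7.49% to 10.9%. The log2 fold changes of the members in endothelium, mesangial cells and monocytes are therefore also given without it. Between 5 and 21 cell barcodes were shared by any pair of libraries. In all kept cells of the 4 libraries, with or without a class, 25153 UMIs fell on Ifi203, 16829 on Mndal, 15758 on Ifi207, 4295 on Ifi204 and 268 on Ifi205. Levels are given as CPM, a gene's UMIs scaled to a fixed total of all UMIs of a class in a library, and corrected by TMM factors (a correction for a few genes taking up much of a library) in endothelial cells, podocytes, mesangial cells, smooth muscle and renin cells, monocytes, B cells and T and NK cells, and unscaled elsewhere. UMIs come from 3′ ends and carry no length correction, so levels are compared between cells and not between genes.

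The members showed 3 patterns across the glomerulus. Ifi203 and Mndal were found in endothelium, mesangium, smooth muscle and renin cells, macrophages, monocytes, dendritic cells, B cells and T and NK cells. Ifi204 and Ifi207 were found mostly in endothelium and myeloid cells and had not 1 UMI in B cells or T and NK cells. Ifi205 was found mostly in dendritic cells.

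**Figure D1:**
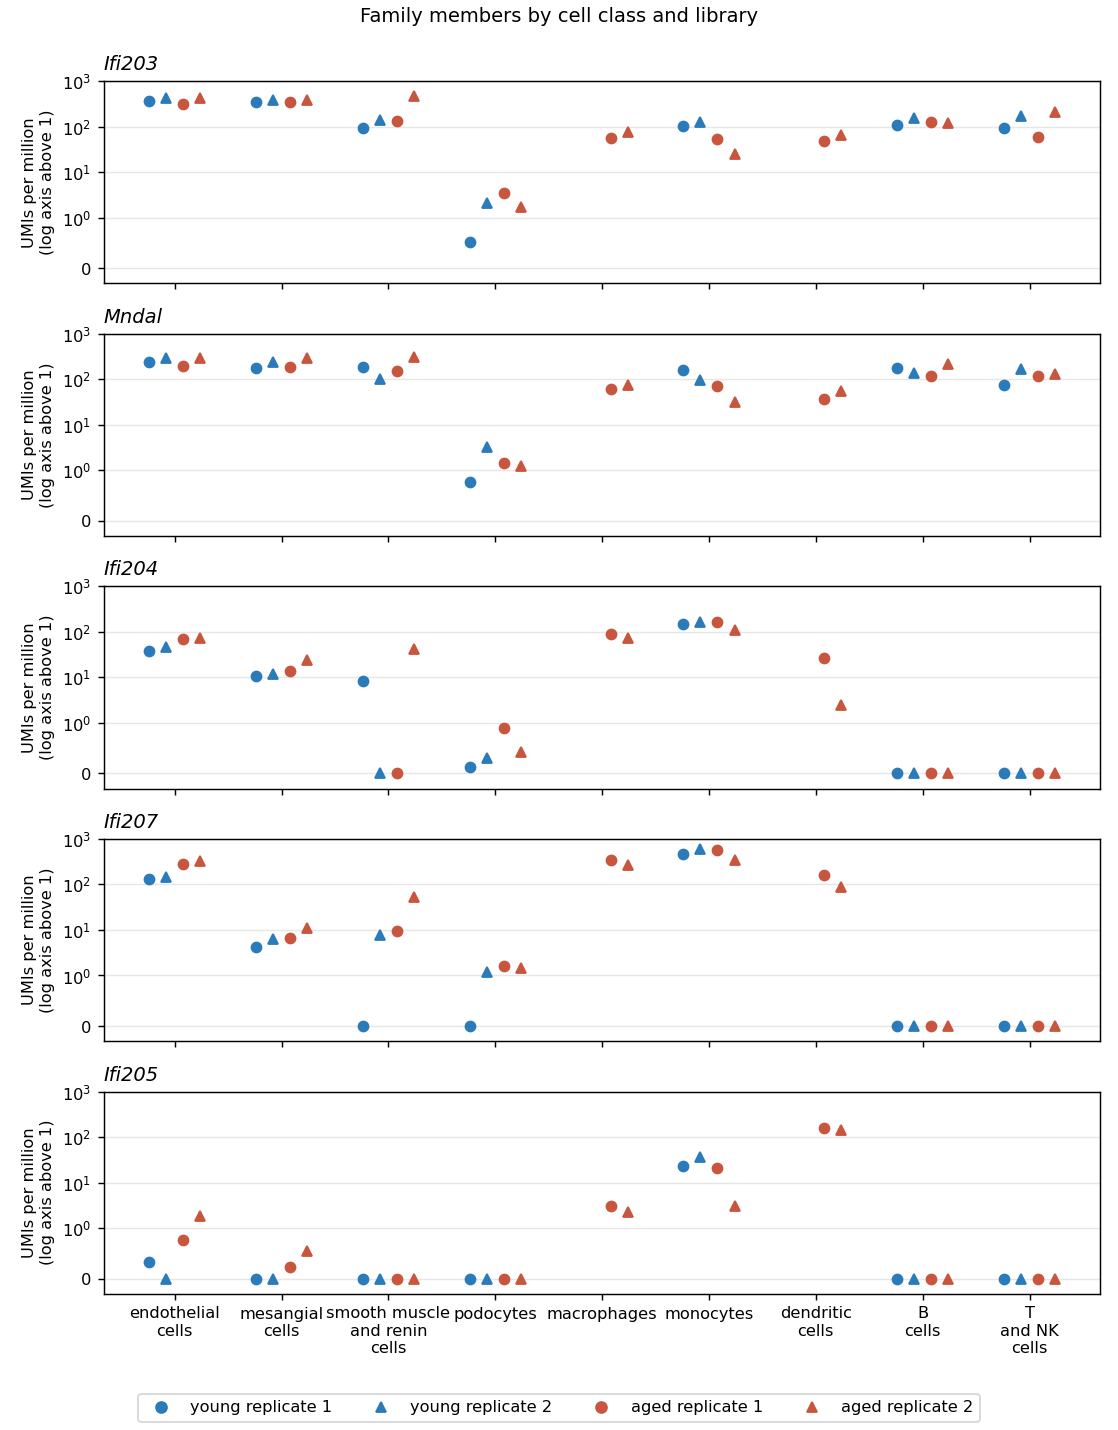
CPM of the 5 members (1 panel each; the axis is logarithmic above 1 and linear below) in 9 cell classes, 1 point per library, for sums of at least 20 cells. Ifi203 and Mndal sit between 57.9 and 220 in lymphocytes, where Ifi204, Ifi207 and Ifi205 are at 0.

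Ifi203 stood at 368 and 421 CPM in young and 320 and 418 in aged endothelial cells. Mesangial cells, the contractile support cells of the tuft, held nearly the same, at 350 and 387 in young and 339 and 383 in aged libraries. The ranges of these 2 classes overlapped. Smooth muscle and renin cells held 91.9 and 137 in young and 135 and 470 in aged libraries, with aged replicate 2 far above the other 3. Among leukocytes, B cells held 108 to 154, T and NK cells 57.9 to 209, monocytes 25.5 to 129, and the aged macrophages 55.7 and 75.5. Young macrophages were too few for a value, with 3 and 13 cells.

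Mndal, which neighbours and overlaps Ifi203, had almost the same profile. Its level was 236 and 288 in young and 192 and 285 in aged endothelium, and 173 and 243 in young and 186 and 293 in aged mesangial cells. B cells held 116 to 220 and T and NK cells 74.7 to 167. Across 39 sums of a class in a library the Pearson correlation of Ifi203 and Mndal on the log2(CPM + 1) scale was 0.94, given as a description, since the sums of 1 library share its depth. The share of Mndal among the UMIs of the 2 genes was 37.5% to 40.6% in the 4 endothelial sums and 33.1% to 43.4% in the mesangial ones. In the 2 aged macrophage sums it was 52.5% (95% exact binomial interval 47.6% to 57.5%, counting error only) and 49.7% (46.1% to 53.4%), above every endothelial interval.

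Ifi207 had a different profile. It stood at 130 and 148 in young and 281 and 329 in aged endothelium, at 268 and 349 in aged macrophages and at 351 to 597 in monocytes. Mesangial cells held only 4.23 to 11.2, which was 1.71% to 4.33% of the pooled endothelial level. Endothelial markers in the same mesangial sums reached 12.4% to 16.3% of their endothelial level, and macrophage markers 1.97% to 3.20% of theirs (2 to 7 of the 8 macrophage markers had a UMI). The part of such RNA in the mesangial level of Ifi207 was not tested. For Ifi203 the same mesangial share was 87.4% to 111% of the endothelial level. In B cells and in T and NK cells no UMI of Ifi207 was found in any library, in sums of 54711 to 141292 UMIs, and 3 counts, the upper limit taken for a count of 0, would equal 20.6 to 56.0 CPM.

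Ifi204 went with Ifi207. Its level was 37.7 and 45.7 in young and 68.7 and 74.8 in aged endothelium, 107 to 165 in monocytes and 73.1 and 88.7 in aged macrophages. Mesangial cells held 10.9 and 11.8 in young and 13.8 and 24.6 in aged libraries, 18.0% to 38.9% of the endothelial level and thus above the share of endothelial markers in each of the 4 sums. Lymphocytes had no UMI of it. The correlation of Ifi204 with Ifi207 over the 39 sums was 0.86, against 0.30 with Ifi203, again as a description.

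Ifi205 was sparse outside dendritic cells, where it stood at 157 and 141 CPM in the aged libraries (71 and 56 UMIs). In young replicate 1, the 18 dendritic cells held 14 UMIs, and in young replicate 2 the 11 dendritic cells held none. Aged macrophages held 3.13 and 2.20 CPM and monocytes 3.09 to 36.3. Of the 242 UMIs of Ifi205 in classed cells, 141 were in dendritic cells.

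Podocytes, the epithelial cells that wrap the capillaries, held very little of any member. Ifi203 was at 0.516 to 3.401 CPM in the 4 podocyte sums, or 0.141% to 0.928% of the endothelial level, while endothelial markers in the same sums were at 0.315% to 0.778% of theirs. In single cells, 0.170% to 1.32% of podocytes had a UMI of Ifi203, at a median depth of 4196 to 7682 UMIs, against 44.7% to 63.0% of endothelial cells at 2312 to 3216 UMIs. Thinned to 1000 UMIs per cell, the endothelial share was 24.2% to 33.8% and the podocyte share 0.113% to 0.306%. Of the 5 members, only Ifi203 passed the count filter in podocytes, and it was not called with age in the edgeR fit, which called 6.42% of 10864 genes (4.30% higher and 2.12% lower in aged cells).

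By a rule of highest correlation over the same 39 sums, the named genes most like Ifi203 were Rasgrp2 (r = 0.84), Fli1 (0.83), which encodes a transcription factor of endothelium and blood cells, and Lrrc8c (0.82). Those most like Mndal were Rasgrp2 (0.82), Sp100 (0.81), itself an interferon-induced nuclear protein, and Clec2d (0.80). Ifi204 was most like Bach1 (0.92), Sat1 (0.85) and Nfe2l2 (0.84), the gene of the antioxidant regulator NRF2. Ifi207 was most like Gpx1 (0.88), Tgfbi (0.87) and Cd36 (0.86), and Ifi205 was most like Cd209a and Clec10a (both 0.92), which are lectins of dendritic cells, and Tnip3 (0.91). Genes were ranked among 15569, and these values are descriptive.

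In endothelial cells, Ifi207 and Ifi204 were higher in the aged libraries, and the groups overlapped for Ifi203 and Mndal. Ifi207 stood at 130 and 148 CPM in young and 281 and 329 in aged endothelial cells, with a mean of 139 ± 12.5 and 305 ± 33.9 (SD, n = 2 each), a log2 fold change of 1.14 (SE 0.15). Each aged library exceeded each young one. Ifi204 stood at 41.7 ± 5.67 in young and 71.8 ± 4.30 in aged endothelium (SD, n = 2 each), a log2 fold change of 0.79 (SE 0.15), again without overlap. Without young replicate 2 the log2 fold changes were 1.23 and 0.93. Ifi203 had 395 ± 38.0 in young and 369 ± 69.7 in aged libraries (log2 fold change -0.10, SE 0.17), and Mndal 262 ± 37.1 and 239 ± 65.6 (-0.13, SE 0.18), all over 2 libraries per group. Their groups overlapped, and without young replicate 2 their log2 fold changes were 0.01 and 0.02. Ifi205 had 2 and 0 UMIs in young and 11 and 26 in aged endothelium and did not pass the count filter.

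**Figure D2:**
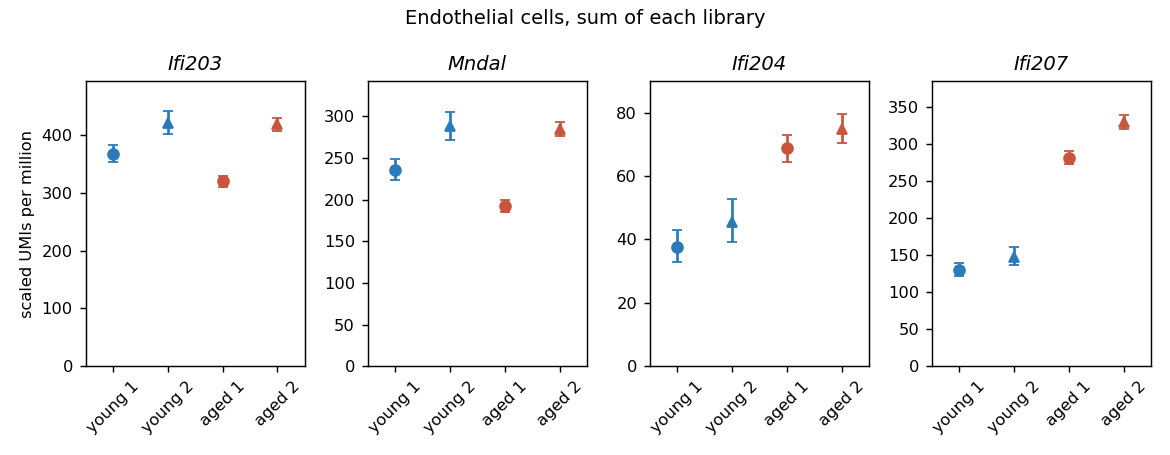
Scaled CPM of 4 members in the endothelial sum of each library, with 95% Poisson intervals as bars (counting error only). Ifi204 and Ifi207 are higher in both aged libraries than in both young ones, and Ifi203 and Mndal overlap.

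In the edgeR quasi-likelihood fit over 12983 genes in endothelium, 5.76% of genes were called at an adjusted p under 0.05, 3.85% higher and 1.91% lower in aged cells. Of the 4 members that passed the count filter, 2 were called, both higher, and since the members were chosen on this comparison nothing is read from that count. Each aged library exceeded each young one in 24.2% of all genes tested. The ratio of the members to each other differed in the same libraries. Ifi207 made up 26.2% and 26.0% of the UMIs of Ifi207 and Ifi203 together in young endothelium and 46.8% and 44.1% in aged endothelium, a comparison that no scaling between libraries can change. After thinning to 1000 UMIs, 10.7% and 11.9% of young and 19.6% and 23.6% of aged endothelial cells had a UMI of Ifi207, against 19.9% and 23.6% of young and 35.7% and 46.6% of aged cells before thinning. Macrophage markers in the endothelial sums stood at 0.0151% and 0.0379% of their macrophage level in young and 0.101% and 0.119% in aged libraries. Of these 8 markers, 3 and 5 had a UMI in young libraries and 7 and 8 in aged ones. Cells rich in markers of another class had been left out of the sums beforehand, so a low share was partly fixed in advance. Monocyte markers stood at 2.78% and 3.22% of their monocyte level in young and 3.10% and 4.62% in aged endothelium. Their part in the Ifi207 difference was not tested.

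Young and aged endothelial cells were not spread alike over the endothelial clusters. A cluster led by Sele, Selp and Il6, genes of activated endothelium, held 7.21% and 10.0% of young and 26.2% and 24.4% of aged endothelial cells, and it had the highest Ifi207 of all endothelial clusters in each library. The members were therefore also compared within each of the 8 endothelial clusters with 20 or more cells in every library. Ifi207 was higher in both aged libraries than in both young ones in 8 of 8 clusters, with log2 fold changes from 0.47 to 2.54. How many of all genes separated within a cluster was not counted. In the whole endothelial sum 24.2% of genes did so in this direction. In the Sele cluster Ifi207 went from 279 and 336 CPM in young to 433 and 503 in aged cells. In a cluster led by Tspan8, Thbs2 and Fbln2, where it was lowest, it went from 18.9 and 17.1 to 64.0 and 146, from 11 and 8 UMIs in the young libraries. In the same cluster Ifi203 stood at 340 and 416 in young and 273 and 396 in aged libraries.

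**Figure D3:**
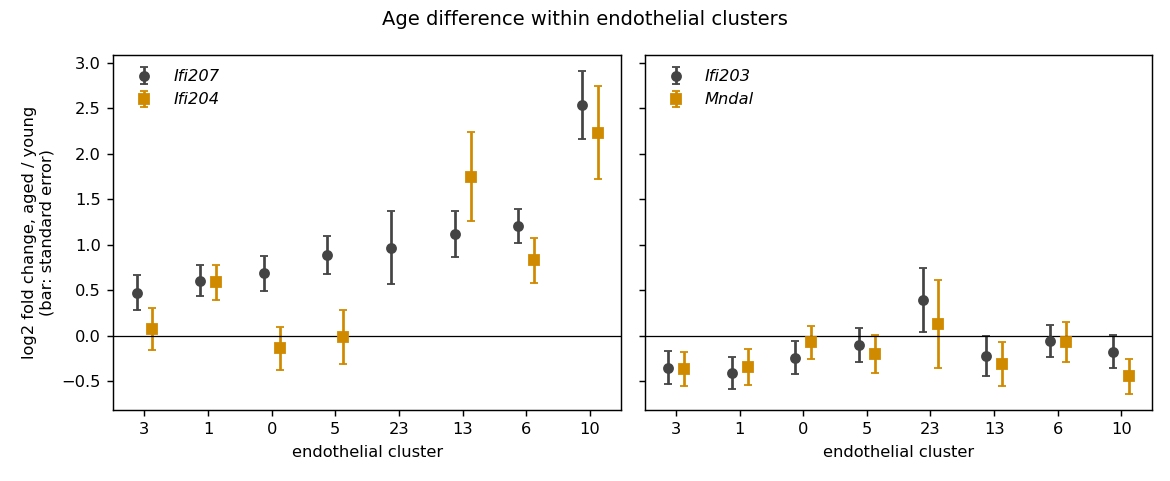
Log2 fold changes, aged over young, within each endothelial cluster (cluster numbers on the horizontal axis). Bars are standard errors from the edgeR fit of 2 libraries per group, and do not show the spread between a gene's own replicates. Ifi207 lies above 0 in 8 of 8 clusters and Ifi203 and Mndal lie below 0 in 7 of 8.

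Ifi204 was higher in both aged libraries in 5 of the 8 clusters, with log2 fold changes from -0.14 to 2.23 in the 7 clusters where it passed the filter. It was near 0 in the largest young cluster (led by Ier5l, Rflna and Gata5), at -0.14 (SE 0.24). The same held in a cluster led by Gchfr, Ctla2a and Cd300lg, at 0.077 (SE 0.23). In a cluster led by Esm1, Igfbp3 and Slc45a4 it was -0.015 (SE 0.295). In the order given, these clusters held 36.0%, 23.5% and 10.8% of endothelial cells in young replicate 1. They held 36.3%, 19.5% and 6.87% in young replicate 2. The shares were 16.6%, 20.4% and 14.9% in aged replicate 1, and 26.4%, 11.1% and 12.1% in aged replicate 2. The part of cluster shares in the Ifi204 difference of the whole endothelium was not tested. The log2 fold change of Ifi204 was largest in the Tspan8 cluster, at 2.23 (SE 0.51). Ifi203 and Mndal had log2 fold changes below 0 in 7 of 8 clusters, from -0.41 to 0.39 and from -0.45 to 0.13. Their groups did not overlap in 2 of 8 clusters for each gene, with the aged libraries lower. In the whole endothelial sum each aged library was below each young one in 24.6% of all genes tested, and above in 24.2%. The shares of all genes within a cluster were not counted, so nothing is read from these numbers of clusters. The fits within clusters called Ifi207 in 5 of 8 clusters, Ifi204 in 1 of 7, and Ifi203 and Mndal in 0 of 8. Since the members were chosen on this comparison, nothing is read from these counts.

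In mesangial cells the groups overlapped for Ifi203 and Mndal, and Ifi204 and Ifi207 were higher in the aged libraries from low levels. Ifi203 had a mean of 368 ± 26.2 in young and 361 ± 31.0 in aged libraries (SD, n = 2 each; log2 fold change -0.03, SE 0.15), and Mndal 208 ± 49.6 and 239 ± 75.7 (0.22, SE 0.21). Ifi204 had 11.3 ± 0.67 and 19.2 ± 7.62 (0.78, SE 0.35) and Ifi207 5.30 ± 1.51 and 8.93 ± 3.20 (0.81, SE 0.46), from 7 UMIs of Ifi207 in each young library. For Ifi204 and Ifi207 each aged library exceeded each young one, as in 27.0% of all 10661 genes tested in these cells. The edgeR fit called 7.47% of genes, 4.82% higher and 2.65% lower, and none of the 4 members that passed the filter was among them. Without young replicate 2 the log2 fold changes were 0.05 for Ifi203, 0.47 for Mndal, 0.83 for Ifi204 and 1.09 for Ifi207. With cells of mixed clusters kept, that of Ifi204 was 0.14 and that of Ifi207 turned to -0.62. Most young and most aged mesangial cells fell into different clusters, so age and cluster cannot be told apart here.

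In monocytes Ifi203 and Mndal were lower in the aged libraries, and the groups overlapped for Ifi204 and Ifi207. Ifi203 stood at 103 and 129 CPM in young and 53.4 and 25.5 in aged monocytes, from 27, 32, 40 and 33 UMIs, a log2 fold change of -1.62 (SE 0.36). Mndal stood at 161 and 96.8 in young and 70.7 and 31.7 in aged monocytes (log2 fold change -1.40, SE 0.35). Neither gene's groups overlapped. Ifi205 went from 22.9 and 36.3 to 21.4 and 3.09 (-1.48, SE 0.70), from 35 UMIs in all, also without overlap. Ifi204, at 149 and 161 in young and 165 and 107 in aged monocytes (-0.20, SE 0.27), and Ifi207, at 474 and 597 and at 572 and 351 (-0.22, SE 0.25), overlapped between the groups. This fit was added after the data had been seen. It called 2.87% of 5230 genes, 1.87% higher and 0.994% lower in aged cells, and 2 of the 5 members, both lower, from which nothing is read. Each aged library was below each young one in 21.2% of the genes tested. The log2 fold changes of Ifi203 and Mndal without young replicate 2 were -1.43 and -1.69, and those of Ifi205, Ifi204 and Ifi207 were -1.06, -0.12 and -0.02. Over 14 other settings Ifi203 and Mndal ran from -2.15 to -1.08 and from -1.99 to -0.83. Endothelial markers in the monocyte sums stood at 0.691% to 1.79% of their endothelial level.

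The monocytes were not of 1 kind. Ccr2, the receptor that brings classical monocytes out of the marrow, stood at 857 and 867 CPM in young and 501 and 135 in aged monocytes, and Ly6c2 at 759 and 486 and at 482 and 138. Plac8, a further marker used for the monocyte class, stood at 2640 and 2431 in young and 1510 and 1285 in aged monocytes, without overlap. Chil3, another gene of classical monocytes, overlapped between the groups, at 458 and 402 in young and 729 and 195 in aged monocytes. The patrolling markers Ace (265 and 372 against 151 and 355), Treml4 (156 and 203 against 113 and 266) and Cd300e (54.5 and 102 against 85.4 and 221) overlapped as well. A finer clustering parted them into a cluster led by genes that include Chil3, Ccr2 and Ly6c2, the profile of classical monocytes, and one led by genes that include Itgal, Cd300e and Ace, that of patrolling monocytes. The first was made up of 51 and 28 young cells against 127 and 61 aged ones, the second of 43 and 47 against 96 and 254. Within the Ccr2 cluster, unscaled Ifi203 was 140 and 242 CPM in young and 68.8 and 64.0 in aged cells, Mndal 196 and 167 and then 93.6 and 50.1, and the groups of neither gene overlapped. Ifi204 was 180 and 242 in young and 181 and 197 in aged cells of that cluster and Ifi207 601 and 899 against 686 and 489, both with overlap. Within the Itgal and Ace cluster, Ifi203 was at 20.6 and 32.5 in young and 16.5 and 10.9 in aged cells, from 2, 4, 4 and 10 UMIs. Mndal there was at 72.0 and 40.6 in young and 16.5 and 25.1 in aged cells, from 7, 5, 4 and 23 UMIs. The values of these genes did not overlap between the groups there either. How many of all genes separated within a monocyte cluster was not counted. In the whole monocyte sum 21.2% of genes tested did so in this direction. In both clusters and for both genes, Poisson intervals of some young and aged libraries overlapped. Levels of Ifi203 and Mndal were lower in the Itgal and Ace cluster than in the Ccr2 cluster in every library.

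**Figure D4:**
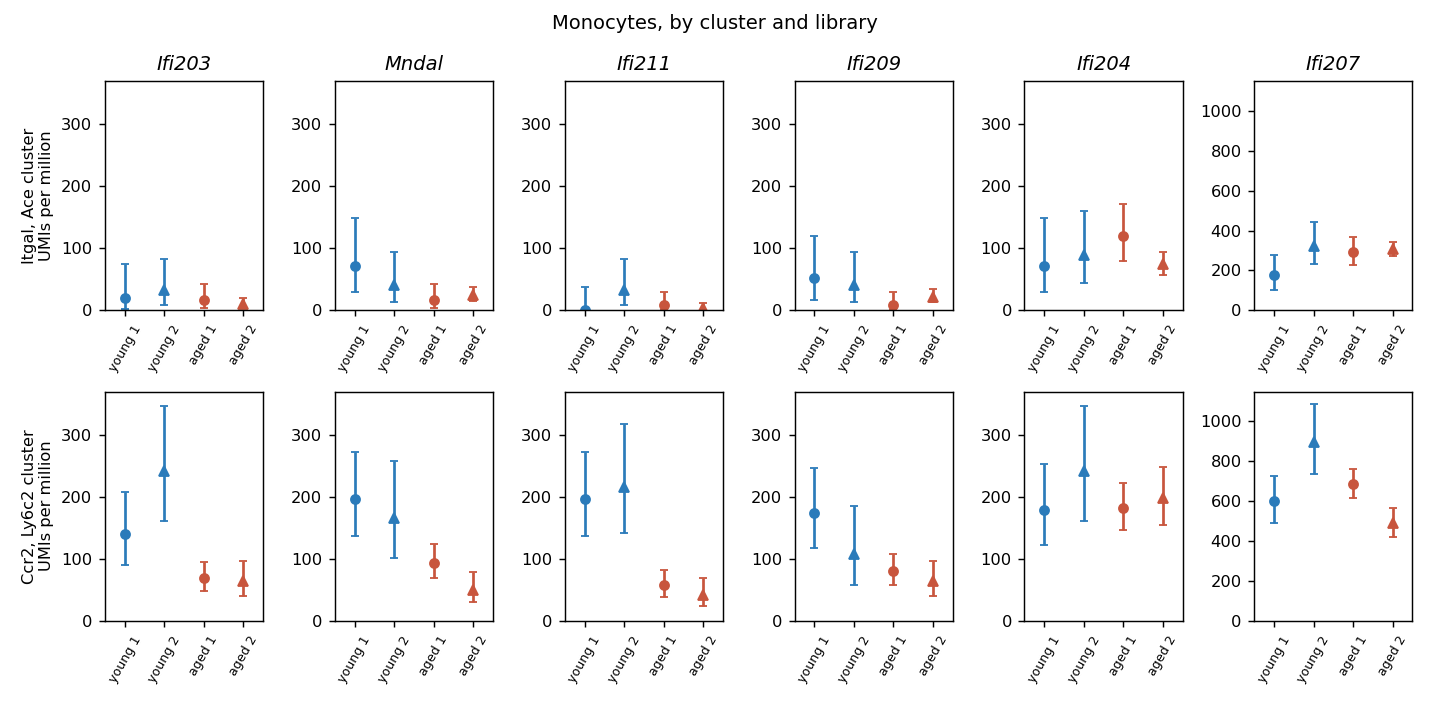
Unscaled CPM in the 2 monocyte clusters (rows), for Ifi203, Mndal, Ifi211, Ifi209, Ifi204 and Ifi207, with 95% Poisson intervals (counting error only; Ifi207 has its own axis range). In the Ccr2 and Ly6c2 cluster the aged libraries lie below the young ones for the first 4 genes and overlap them for the last 2. In the Itgal and Ace cluster they lie below the young ones for Ifi203, Mndal and Ifi209.

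Macrophages were too few in the young libraries to compare, and the whole libraries are given for that reason. Over all kept cells, Ifi207 stood at 57.7 and 74.6 CPM in young and 180 and 194 in aged libraries, and Ifi204 at 19.7 and 25.01 and at 46.6 and 51.0. Macrophages gave 0.704% and 4.14% of the Ifi207 UMIs of the young and 19.7% and 18.7% of those of the aged libraries, and endothelial cells 70.1% and 49.1% against 65.3% and 63.8%. In such whole-library sums more cells of a type and more RNA per cell cannot be told apart. Ifi203 was at 197 and 252 in young and 206 and 271 in aged libraries, and Mndal at 126 and 169 and at 127 and 195, with overlap. Cells without a class held 15.1% and 32.5% of the young Ifi207 UMIs and 5.92% and 9.58% of the aged ones.

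In the lymphocytes the groups overlapped for both members found there. Ifi203 had a mean of 131 ± 32.5 in young and 122 ± 1.56 in aged B cells and 130 ± 52.4 and 134 ± 107 in T and NK cells (SD, n = 2 each). Mndal had 156 ± 29.3 and 168 ± 73.4 in B cells and 121 ± 65.6 and 123 ± 10.5 in T and NK cells. These sums held 4 to 24 UMIs per gene and library, which limits what could be detected.

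The other genes of the family showed further patterns. Ifi211, with 4515 UMIs, correlated with Ifi204 and Ifi207 over the 39 sums (r = 0.82 with each) and, like them, had no UMI in lymphocytes. In mesangial cells and macrophages its profile differed from theirs. Mesangial cells held 60.0% to 88.0% of its pooled endothelial level, against 18.0% to 38.9% for Ifi204 and 1.71% to 4.33% for Ifi207. Aged macrophages held 31.7% and 22.6% of it, against 143% and 118% for Ifi204 and 137% and 105% for Ifi207. In endothelium Ifi211 stood at a mean of 55.6 ± 10.3 in young and 75.4 ± 8.29 in aged libraries (SD, n = 2 each, log2 fold change 0.45, SE 0.15, edgeR adjusted p = 0.105). In mesangial cells it stood at 42.8 ± 5.22 and 60.7 ± 0.14 (0.49, SE 0.18, edgeR adjusted p = 0.125). In monocytes it fell from 134 and 121 in young to 42.7 and 14.7 in aged libraries (log2 fold change -2.25, SE 0.38, edgeR adjusted p = 0.000244), and within the Ccr2 cluster from 196 and 217 to 57.3 and 41.7. Mnda, another name of Ifi211, was among the member symbols, so the p-values of Ifi211 are given as a description only. Ifi209 was a gene of leukocytes, with 39 UMIs in endothelium and 2 in mesangium of 612 in all, and it fell in monocytes from 138 and 72.6 to 58.7 and 33.2 (log2 fold change -1.24, SE 0.36, edgeR adjusted p = 0.0494). The calls of these 2 genes held in 10 and 4 of 14 other settings, with adjusted p up to 0.332 and 0.739 and the same sign in all 14. Ifi208 was found mostly in endothelium, with 762 of 1036 UMIs there and 1 in macrophages and monocytes together, at a mean of 21.0 ± 3.804 in young and 19.6 ± 1.28 in aged endothelium (SD, n = 2 each; adjusted p = 0.862). Aim2, the inflammasome sensor, was found in monocytes at 72.7 ± 5.52 in young and 40.3 ± 3.42 in aged libraries (SD, n = 2 each; log2 fold change -0.86, edgeR adjusted p = 0.266), in aged macrophages at 32.1 and 27.2 and in endothelium at 2.29 to 4.96. Ifi213 was mostly endothelial, at 7.31 ± 2.01 and 11.1 ± 2.94 there (SD, n = 2 each; adjusted p = 0.196), Ifi206 had 190 UMIs in all, Ifi214 had 23, and Ifi202b none.

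The rest of the interferon pathway was read, with earlier results known, from 4 lists of receptors and signalling genes, nucleic acid sensors, type I targets and interferon gamma targets. In endothelium 5 of 93 tested genes were called, all higher in aged cells, against 748 of 12983 genes of any kind, and the median log2 fold change was 0.15, against -0.01 over all genes. They were the gamma targets Gbp2 (from 42.4 and 46.7 to 130 and 105; log2 fold change 1.40, SE 0.15, edgeR adjusted p = 2.1e-05), Gbp8 and Gbp5, guanylate-binding proteins of cell-autonomous defence, the kinase gene Jak2 (from 37.3 and 43.9 to 89.3 and 61.9) and Trim25, a ubiquitin ligase of the RIG-I pathway (from 184 and 208 to 334 and 265). Without young replicate 2, 11 of the genes were called, all higher. Without aged replicate 2, 11 were called, 9 higher and 2 lower, and without young replicate 1, 7 were called, 3 higher and 4 lower.

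In podocytes 7 of 62 genes were called, against 697 of 10864 genes of any kind (6.42%). Higher were Ifit3 (from 13.0 and 13.7 to 21.3 and 26.4), Bst2, Herc6, Ifit1, Samd9l and Gbp2, and lower was Socs1, a feedback inhibitor of JAK signalling (from 19.4 and 17.9 to 7.70 and 5.87; log2 fold change -1.46, SE 0.23, edgeR adjusted p = 2.6e-05). With cells of mixed clusters kept, 0 were called in edgeR (5 at an unadjusted p under 0.05), and DESeq2 called 1. Ifit1 and Samd9l kept their sign in 12 of 14 settings and Bst2 in 13. In mesangial cells 7 of 82 were called, against 796 of 10661 genes of any kind (7.47%): Gbp2, Gbp5, the MHC class I regulator Nlrc5, Bst2 and Lgals3bp higher, and Irf1 (from 1687 and 1803 to 1114 and 801) and Socs1 lower. Without young replicate 2 none of these was called (edgeR, with 15 at an unadjusted p under 0.05), and without young replicate 1 only 1.

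In monocytes 4 of 56 list genes were called, all lower in aged cells, against 150 of 5230 genes of any kind (2.87%; 0.994% lower): Tmem173, which encodes STING, the adaptor of DNA sensing (from 68.8 and 36.3 to 21.4 and 12.4), Phf11b (from 57.3 and 88.7 to 18.7 and 15.5), Slfn5 and Slfn8. The median log2 fold change of the 56 genes was -0.44, against -0.01 over all genes tested in monocytes, and 15 of 56 were above 0. Without either young library 0 were called (edgeR, with 4 and 19 at an unadjusted p under 0.05), and DESeq2 called 1 on all 4 libraries.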

How the data were processed

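Per the labels' protocols, Chromium Single Cell 3′ v3.1 libraries were aligned to GRCm38. The protocol names Cell Ranger 3.1.0 and the submitters' processing notes Cell Ranger 6.0.1, and which made the files was not settled. The deposited values are raw UMI counts per gene and barcode, 1 matrix per library, not normalized by the authors; the lowest barcode total was 500. The library totals were 22398650 and 18457791 UMIs (young) and 41697199 and 42046542 (aged).

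Barcodes with at least 500 genes and at most 20% mitochondrial UMIs were kept, and the highest Scrublet scores were removed at 0.8% per 1000 barcodes. Cells were clustered in scanpy 1.11.5 with 2000 variable genes (none of the family), 30 components, 15 neighbours and Leiden resolution 1. Clusters took the class with the highest marker level, at 0.35 of the best cluster or more with at least 3 markers. Those with an unrelated class at 0.25 of that level stayed without a class. So did single cells with 2 or more UMIs of an unrelated class's markers, at 0.25 of that class's level or more. The naming thresholds followed a first look at the data. Parietal epithelial cells were not tested, since aged replicate 2 had 19 such cells and 20 were required.

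UMIs were summed per class and library. The sums went into edgeR 4.0.16, quasi-likelihood F test (TMM, default count filter, age as the only term, Benjamini-Hochberg over all genes tested), with DESeq2 1.42.0 as an alternative; the scripts were tested on simulated data. SE is that of the log2 fold change. Poisson and binomial intervals are exact at 95%. Correlations used class sums of at least 20 cells and genes at 10 CPM or more. Named list genes were, per class, list and direction, up to 4 called genes with the smallest p whose aged libraries lay on 1 side of both young ones; Samd9l was named after its values were seen. GENCODE vM21 holds 99.6% of the deposited IDs. Promoters are from RefSeq, GRCm38.p6. The members and lists were chosen with earlier results of these data known.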

Additional observations from a re-analysis of the deposited data

Results flagged for a closer look

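Among genes of the family with at least 30 UMIs in each class compared, the aged libraries lay above both young ones in 1 cell class and below both in another, without overlap in either, for 3 genes. Ifi213, with 8 UMIs in monocytes, had the same pattern below that minimum. The difference between classes was not tested, and how many of all genes had such a pattern was not counted. Separation within 1 class was frequent. Of the genes tested, 24.2% in endothelial cells and 27.0% in mesangial cells had each aged library higher than each young one. In monocytes 21.2% had each aged library lower. Nothing is therefore read from the number of genes found. For Ifi211 the log2 ratio of the aged to the young mean was 0.44 in endothelial cells (2684 UMIs) and -2.15 in monocytes (116 UMIs), a difference of 2.59, and 0.50 in mesangial cells (721 UMIs), a difference of 2.66 from monocytes. For Ifi205 it was 3.01 in endothelial cells (39 UMIs, 2 of them in young libraries) and -1.28 in monocytes (35 UMIs), a difference of 4.28. For Ifi209 it was 1.41 in endothelial cells (39 UMIs) and -1.19 in monocytes (141 UMIs), a difference of 2.60.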

How the results depend on the processing

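Young replicate numbers were not taken to pair with aged ones: with 2 pairs, deviations of same-numbered libraries correlated at 0.18 (endothelial), 0.07 (podocyte) and 0.09 (mesangial). With the replicate number as a block, 1102 genes were called in endothelium, 895 in podocytes, 1608 in mesangial cells and 284 in monocytes, against 748, 697, 796 and 150, and 15, 10, 20 and 10 interferon pathway genes against 5, 7, 7 and 4. DESeq2 called 490, 269, 390 and 59 genes, and 5, 1, 4 and 1 pathway genes. Without the low-count filter, mesangial cells gave 1260 genes and 18 pathway genes, and the median log2 fold change of all genes moved to 0.12 there and 0.25 in monocytes. Cells named one by one gave 253 genes in podocytes, 418 in mesangial cells and 25 in monocytes, with 1 pathway gene in podocytes and 0 in monocytes (13 at an unadjusted p under 0.05). With mixed clusters kept, podocytes gave 41 genes and 0 pathway genes, and monocytes 2 pathway genes; of called genes 369 were higher and 349 lower in mesangial cells (514 and 282 in the reported fit), and 49 and 107 in monocytes (98 and 52). At 1000 genes per cell, endothelium gave 10 pathway genes and monocytes 69 genes and 1 pathway gene. Leiden resolution 2 and doubled doublet removal each gave 1 pathway gene in monocytes. Leaving out 1 library at a time gave 526 to 744 genes and 4 to 11 pathway genes in endothelium, 306 to 794 and 2 to 11 in podocytes, 61 to 1739 and 0 to 22 in mesangial cells, and 3 to 151 and 0 to 6 in monocytes; the lone library left in a group is then assumed to vary like the other group. The mesangial counts were 61 and 96 without young replicates 1 and 2, and the monocyte counts 3 and 12. The cause was not tested.

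Among the members, the endothelial log2 fold change ran from 1.02 to 1.25 for Ifi207 and from 0.66 to 0.93 for Ifi204 over 14 settings, from -0.30 to 0.09 for Ifi203 and from -0.44 to 0.13 for Mndal. In mesangial cells Ifi204 ran from 0.14 to 1.13 and Ifi207 from -0.62 to 1.13. In podocytes Ifi203 ran from -3.11 to 2.28 over the 12 settings that gave a value. In monocytes Ifi205 ran from -3.14 to -0.18, Ifi204 from -0.50 to 0.19 and Ifi207 from -0.58 to 0.27. The alternatives planned for parietal epithelial cells were not run, since 19 cells in aged replicate 2 gave no fit.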

Other observations

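The pseudogene Ifi203-ps, which lies between Ifi204 and Mndal on the same strand (chr1:173776529-173798270, GRCm38), had 3136 UMIs. Of those in classed cells, 2375 were in endothelium and 177 in mesangial cells, with 11 in macrophages and 1 in monocytes, where Ifi203 itself had 581 and 132. In the last 500 bases, 8.03% of its 90-base stretches occurred in another gene of the family, Ifi203 foremost.

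Of the few lymphocyte UMIs of the family outside Ifi203 and Mndal, Ifi209 gave 68 in B cells and 28 in T and NK cells, Aim2 15 and 12, and Ifi214 1 and 9. The 9 UMIs of Ifi214 in T and NK cells were 9 of the 16 it had in all classed cells.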
